A study of Gallus gallus with 24 samples.

Results

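The genes of the proteasome were followed in the heart and liver of chickens exposed to salinomycin (Sal) and of control chickens. Members were taken by symbol, as every gene of the count table whose name begins with PSM, a letter from A to G and a digit, and 40 of the 15051 genes in the table met this rule. The core particle had 13 of them, PSMA1 to PSMA7, PSMB1 to PSMB5 and PSMB7. The regulatory particle had 16, which were PSMC1, PSMC2, PSMC3, PSMC5, PSMC6, PSMD1 to PSMD4, PSMD6, PSMD7, PSMD8 and PSMD11 to PSMD14. Another 6 were assembly chaperones and 4 were other activators or the inhibitor. PSMC3IP met the symbol rule but encodes a factor of meiotic recombination and is no subunit.

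Sal is an ionophore that is added to feed against coccidia. The exposed birds ate feed with 10.5 mg/kg Sal during weeks 4 and 5, an estimated 0.9 mg per kg body weight a day, and the control birds ate feed without it. The birds of both groups were female broilers raised on Sal-free feed before that, and tissue was taken in week 5. RNA-seq libraries came from 6 Sal-exposed and 6 control hearts and from 6 Sal-exposed and 6 control livers. The labels do not name the pen of a bird, and they do not say whether a heart and a liver of one number came from the same bird. Per the methods, 6 birds of each group were sampled and gave both tissues, so the hearts and livers of a group share birds.

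The proteasome breaks down proteins that carry ubiquitin. Its core particle is a barrel of alpha rings around beta rings, and the beta rings hold the active sites. The regulatory particle sits on the end of the barrel. Its lid removes ubiquitin from the substrate, and the ATPases of its base unfold the chain and feed it through a gate in the alpha ring. Other caps can take the place of the regulatory particle, and a set of chaperones helps the rings and the base to assemble. In mammals the subunit genes are switched on together by the transcription factor NFE2L1 when the proteasome is blocked.

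Each library had between 31.4 and 44.5 M counts on genes, and all 40 members passed the filter on low counts in every comparison. Levels are given as counts per M counts (CPM) after TMM scaling, which sets the typical gene equal between libraries, and they are comparable between libraries but not between genes. Cardiomyocyte markers summed to between 26291 and 37546 CPM in the Sal-exposed hearts and between 21111 and 28414 CPM in the control hearts, against 7.70 to 43.6 CPM in the Sal-exposed livers and 47.2 to 261 CPM in the control livers. Mitochondrial genes took 55.4% ± 16.3 of the counts in Sal-exposed hearts and 41.6% ± 3.51 in control hearts (SD, n = 6 each; two-sided exact permutation p = 0.0368), with 72.0% and 79.6% in Sal-exposed hearts 1 and 4. The share was 12.1% ± 9.10 in Sal-exposed livers and 17.2% ± 8.09 in control livers (SD, n = 6 each; two-sided exact permutation p = 0.299). In bulk tissue, fewer cells of a type and less RNA per cell cannot be told apart.

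The members lay on 20 chromosomes of GRCg7b, with 7 of them on chromosome 5 and 6 on chromosome 27. Their median genomic span was 7601 bp, against 15372 bp over all genes. The model of 15 members overlapped another gene model, and the sources used here do not state whether counting used the strand, so the counts of those genes may hold reads of a neighbour. The annotated PSMA4 model was the extreme case. It spanned 137264 bp (chr10:3668874-3806137) across IREB2, WDR61, DNAJA4, ACSBG1 and IDH3A, where the RefSeq gene spans 5114 bp, and its values are uncertain for that reason.

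Summed levels of both particles lay above the control mean in the heart and below it in the liver. The core particle summed to 961 ± 222 CPM in Sal-exposed hearts and 794 ± 46.2 CPM in control hearts, and to 1002 ± 206 CPM in Sal-exposed livers and 1183 ± 78.9 CPM in control livers (SD, n = 6 each). For the regulatory particle the sums were 1179 ± 145 CPM in Sal-exposed hearts and 1062 ± 52.1 CPM in control hearts, and 1149 ± 186 CPM in Sal-exposed livers and 1401 ± 151 CPM in control livers. The groups overlapped in each case. The Sal-exposed groups were wider than their controls, and the library numbered 2 stood at the top of each. Sal-exposed heart 2 had 1369 CPM of core and 1404 CPM of regulatory particle transcripts, and Sal-exposed liver 2 had 1407 and 1501 CPM.

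**Figure D1:**
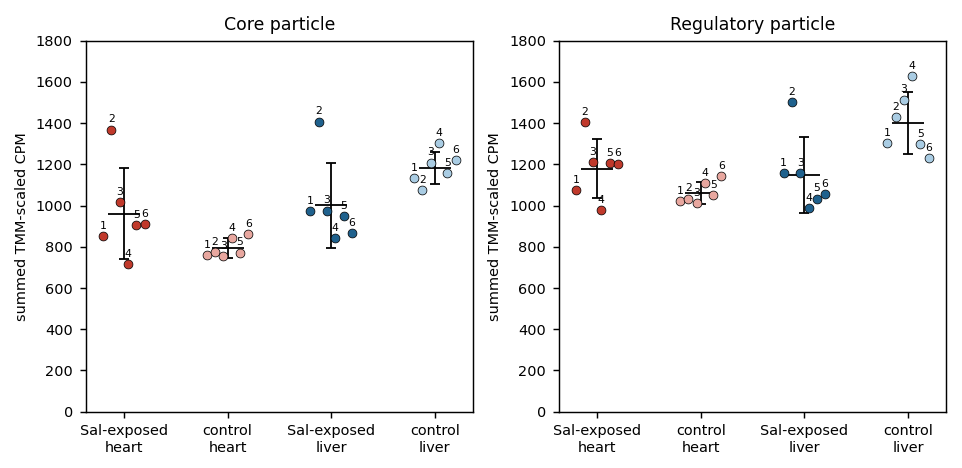
Summed TMM-scaled CPM of the 13 core genes (left) and the 16 regulatory particle genes (right) in each library, with the mean and SD of each group of 6. Numbers beside the points are the replicate numbers of the labels. Sal-exposed heart 2 and Sal-exposed liver 2 stand above the other libraries of their groups, and the remaining Sal-exposed livers lie at or below 976 CPM for the core, under the lowest control liver at 1077 CPM.

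The first comparison asked whether Sal exposure changed proteasome transcripts in the heart. No member passed an adjusted p of 0.05 in edgeR's quasi-likelihood test, in a tissue where 0.185% of 13526 genes did. At an unadjusted p under 0.05 there were 9 members with a higher level in Sal-exposed hearts and 0 with a lower one, where 10.1% of all genes were higher and 7.1% lower at that level. The log2 fold change was above 0 in 31 of 40 members, or 77.5%, against 47.8% of all genes. Its median was 0.22 over the core genes, 0.10 over the regulatory particle, 0.10 over the chaperones and -0.02 over all genes tested. In DESeq2 4 members passed as higher (PSMB3, PSMC2, PSMC6 and PSMD12), or 10%, where 4.85% of all genes passed. With total nuclear counts and no scaling factor, an alternative chosen after the data were seen, the all-gene median of the heart was -0.13, the core median 0.09 and the regulatory median -0.015, which is 0.22 and 0.12 relative to the median gene, where the TMM values were 0.23 and 0.12 relative to it.

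The lowest p belonged to PSMD12, a lid subunit. Its lowest, median and highest levels were 33.9, 56.8 and 72.3 CPM in Sal-exposed hearts, against 32.6, 35.1 and 37.6 CPM in control hearts. Only Sal-exposed heart 3 lay within the control range. The log2 fold change was 0.67 (SE 0.16, adjusted p = 0.0814). PSMB3 and PSMB4, beta ring subunits without an active site, had the next largest changes. PSMB3 was at 55.5, 64.9 and 122 CPM in Sal-exposed hearts, against 41.8, 49.3 and 56.7 CPM in control hearts (log2 fold change 0.59, SE 0.18, adjusted p = 0.131). PSMB4 was at 102, 158 and 267 CPM in Sal-exposed hearts, against 106, 115 and 137 CPM in control hearts (log2 fold change 0.54, SE 0.18, adjusted p = 0.155). For both genes the highest value was that of Sal-exposed heart 2.

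The base ATPases PSMC2 and PSMC6, which belong to the ring that unfolds substrates, were the 2 members whose groups did not overlap in the heart, where 2.6% of all genes had no overlap. PSMC2 was at 78.1, 84.7 and 121 CPM in Sal-exposed hearts, against 63.6, 70.6 and 75.0 CPM in control hearts (log2 fold change 0.39, SE 0.12, adjusted p = 0.127). The lowest, median and highest PSMC6 levels were 80.2, 88.4 and 119 CPM in Sal-exposed hearts and 65.2, 72.5 and 77.0 CPM in control hearts (log2 fold change 0.36, SE 0.11, adjusted p = 0.133). Every Sal-exposed heart was above every control heart for these genes. The remaining ATPases lay close to their controls, with log2 fold changes of 0.10 for PSMC1, 0.10 for PSMC3 and -0.05 for PSMC5.

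The other members under an unadjusted p of 0.05 were the lid subunits PSMD7 and PSMD8 and the alpha ring subunits PSMA1 and PSMA4, with log2 fold changes of 0.38, 0.35, 0.44 and 0.38. At the other end of the order stood PSME4, an activator that caps the core in place of the regulatory particle, and the regulatory subunits PSMD3 and PSMD2. PSME4 was at 14.3, 30.5 and 32.6 CPM in Sal-exposed hearts, against 25.9, 33.1 and 35.96 CPM in control hearts (log2 fold change -0.26, SE 0.19, adjusted p = 0.504). PSMD3, of the lid, was at 35.9, 74.8 and 89.2 CPM in Sal-exposed hearts and 67.8, 72.4 and 87.2 CPM in control hearts. PSMD2, a base subunit where shuttle proteins dock, was at 68.9, 89.3 and 108 CPM in Sal-exposed hearts and 81.2, 95.7 and 112 CPM in control hearts. Their log2 fold changes of -0.18 and -0.12 were within the spread between birds.

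Of the subunits that cut or deubiquitinate, PSMB5, PSMB7 and PSMD14 showed no difference beyond that spread in the heart. The catalytic subunit PSMB6 was not found by symbol in the count table. PSMB5, which carries the chymotrypsin-like site, was at 37.5, 58.8 and 91.0 CPM in Sal-exposed hearts and 52.0, 61.5 and 71.8 CPM in control hearts. PSMB7, with the trypsin-like site, was at 87.6, 116 and 172 CPM in Sal-exposed hearts and 100, 104 and 116 CPM in control hearts. PSMD14, the lid protease that strips ubiquitin from substrates, was at 25.2, 32.1 and 35.9 CPM in Sal-exposed hearts and 30.1, 32.02 and 38.6 CPM in control hearts. The adjusted p was 0.876 for PSMB5, 0.465 for PSMB7 and 0.84 for PSMD14.

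The heart values differed widely between single libraries. Sal-exposed heart 2 was the highest of the 12 hearts for 28 of 40 members, or 70%, where it was the highest for 18.2% of all genes. Sal-exposed heart 4 was the lowest for 14 members, or 35%, where it was the lowest for 19.3% of all genes. Without Sal-exposed heart 2 the core median was 0.09 and the regulatory median 0.08. Without Sal-exposed hearts 1 and 4, left out after the values were seen, they were 0.31 and 0.20, and 16 of 16 regulatory genes had a log2 fold change above 0. Of the hepatocyte markers, 3 of 8 tested passed as higher in Sal-exposed hearts (ALB, AHSG and APOH), where 0.185% of all genes passed. AHSG and APOH were low, with means of 3.17 and 1.40 CPM in Sal-exposed hearts and 0.597 and 0.225 CPM in control hearts. APOA1 and TF went the other way, with means of 340 and 29.9 CPM in Sal-exposed hearts and 453 and 40.1 CPM in control hearts. The list summed to 297 to 539 CPM in Sal-exposed hearts and 261 to 789 CPM in control hearts, with APOA1 as the largest part. Of the 8 tested, 6 had a log2 fold change above 0, with a median of 1.95. At an unadjusted p under 0.05 in edgeR 6 were higher and 1 lower. Sal-exposed hearts lay above control hearts without overlap for 5 of them, where 2.6% of all genes had no overlap. The part of this list in the proteasome values was not tested. Cardiomyocyte markers had a median log2 fold change of 0.40, with 0 of 8 past the threshold and 6 of 8 higher at an unadjusted p under 0.05. Fibroblast markers had a median of -0.56, with 0 of 5 past the threshold and 3 of 5 lower at that level, and summed to 1602 to 2419 CPM in Sal-exposed hearts and 2175 to 3514 CPM in control hearts. The part of these lists in the proteasome values was not tested.

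**Figure D2:**
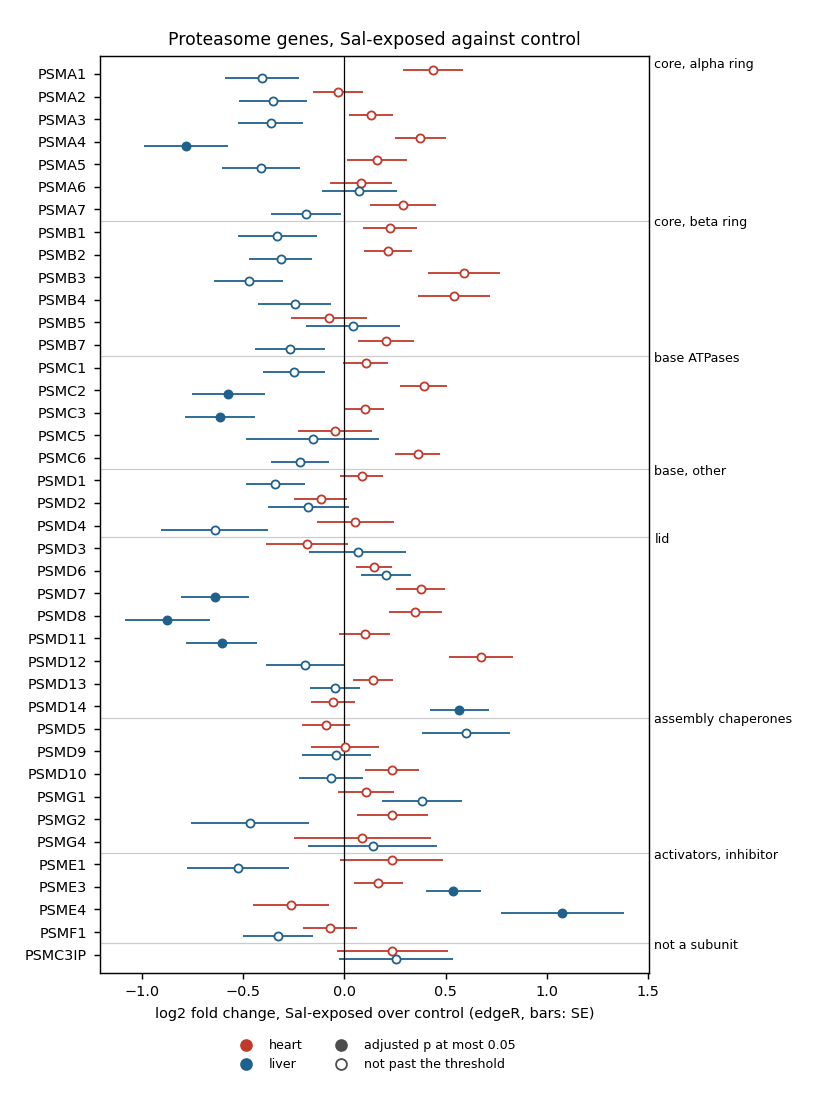
Log2 fold change of each member, Sal-exposed over control, in heart (red) and liver (blue), with the standard error of the edgeR fit and 6 libraries a group. Filled points passed an adjusted p of 0.05. Most red points lie right of 0 with none filled, and most blue points of the core, base and lid lie left of 0, with PSMD14, PSME3 and PSME4 filled on the right.

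In the liver, 9 of 40 members passed the threshold. That is 22.5% of the members, where 15.4% of 13587 genes passed. Lower in Sal-exposed livers were 6 members, or 15%, where 7.84% of all genes were lower: the lid subunits PSMD8, PSMD7 and PSMD11, the base ATPases PSMC2 and PSMC3, and the alpha ring subunit PSMA4. Higher were 3 members, or 7.5%, where 7.57% of all genes were higher: PSMD14 of the lid and the alternative caps PSME3 and PSME4. The log2 fold change was below 0 in 11 of 13 core genes and 13 of 16 regulatory genes, with medians of -0.33 and -0.23, against -0.01 over all genes tested, of which 49.3% had one above 0. With an offset on genomic span the medians were -0.19 and -0.15, against -0.02 over all genes. The chaperones had a median of 0.05, and PSME1, PSME3, PSME4 and PSMF1 one of 0.11.

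These directions are relative to the typical gene of the liver. When the total count of nuclear genes was used as the library size with no scaling factor, the median over all genes shifted to 0.51. The core and regulatory medians were then 0.19 and 0.27, which is -0.32 and -0.23 relative to the median gene, where the TMM values were -0.32 and -0.22 relative to it. On that unscaled basis 8 members passed as higher and 0 as lower, or 20% of the members, where 31.6% of all genes passed. The 40 members together took 0.345% ± 0.038 of the nuclear counts in Sal-exposed livers and 0.295% ± 0.033 in control livers (SD, n = 6 each).

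PSMD8, whose yeast counterpart joins the lid last during assembly, fell furthest. Its gene lies at chr38:340321-349439, and no RefSeq gene matched it by symbol. Its lowest, median and highest levels were 49.6, 60.9 and 91.1 CPM in Sal-exposed livers, against 65.5, 111 and 160 CPM in control livers. Of the control livers, only replicate 6 lay within the Sal-exposed range. The log2 fold change was -0.87 (SE 0.21, adjusted p = 0.0163), and the gene passed in each of the 12 fits that left out one library.

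PSMD7, the partner with which PSMD14 forms a pair in the lid, was at 57.3, 65.4 and 93.0 CPM in Sal-exposed livers, against 77.2, 106 and 119 CPM in control livers. Sal-exposed liver 2 was its only exposed library inside the control range (log2 fold change -0.64, SE 0.17, adjusted p = 0.0232). PSMD11, which in human and yeast particles braces the lid against the core, was at 45.8, 57.9 and 83.9 CPM in Sal-exposed livers, against 61.1, 86.9 and 108 CPM in control livers (log2 fold change -0.61, SE 0.17, adjusted p = 0.0321). The other lid subunits PSMD3, PSMD6, PSMD12 and PSMD13 had log2 fold changes between -0.20 and 0.21, and none of them passed.

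Among the ATPases, PSMC3 was at 71.7, 82.8 and 129 CPM in Sal-exposed livers, against 119, 129 and 146 CPM in control livers. All but Sal-exposed liver 2 lay below every control (log2 fold change -0.61, SE 0.17, adjusted p = 0.0296). PSMC2 was at 76.5, 88.8 and 128 CPM in Sal-exposed livers, against 102, 134 and 168 CPM in control livers (log2 fold change -0.57, SE 0.18, adjusted p = 0.0456). The values of PSMC1, PSMC5 and PSMC6 were -0.25, -0.16 and -0.22 on the log2 scale, with adjusted p of 0.285, 0.784 and 0.309. PSMD4, a ubiquitin receptor of the base, had a fold change as large as that of PSMD7, at -0.64, but with an SE of 0.26 and an adjusted p of 0.111. It was at 14.5, 28.0 and 58.7 CPM in Sal-exposed livers, against 37.0, 47.8 and 55.8 CPM in control livers, and Sal-exposed liver 2 held the highest value of all.

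Of the core, PSMA4 alone passed, with the reservation on its gene model given above. Its levels were 59.1, 65.1 and 90.7 CPM in Sal-exposed livers, against 76.7, 125 and 145 CPM in control livers (log2 fold change -0.78, SE 0.21, adjusted p = 0.0246). PSMB3 followed at -0.47 (adjusted p = 0.0728), and PSMA1, PSMA3 and PSMA5 lay at -0.41, -0.36 and -0.41 with an unadjusted p under 0.05. At that level 12 members were lower and 4 higher, where 16.1% of all genes were lower and 15.4% higher. The active-site subunits found in the table, PSMB5 and PSMB7, did not pass. PSMB5 was at 69.7, 111 and 194 CPM in Sal-exposed livers and 83.6, 101 and 156 CPM in control livers (log2 fold change 0.04, adjusted p = 0.919). PSMB7 was at 98.2, 114 and 171 CPM in Sal-exposed livers and 118, 135 and 164 CPM in control livers (log2 fold change -0.27, adjusted p = 0.305).

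PSMD14, of the same lid, rose where PSMD7, PSMD8 and PSMD11 fell. Its gene lies at chr7:20999289-21045412. It was at 24.9, 30.0 and 35.7 CPM in Sal-exposed livers, against 15.3, 20.1 and 25.7 CPM in control livers. One control library reached above the lowest exposed one (log2 fold change 0.57, SE 0.15, adjusted p = 0.0205). PSME3, a cap found mainly in the nucleus of mammalian cells, was at 48.0, 53.7 and 60.8 CPM in Sal-exposed livers, against 29.9, 35.7 and 42.9 CPM in control livers, with no overlap (log2 fold change 0.54, SE 0.14, adjusted p = 0.0192). Its model (chr27:5058598-5065866) overlaps that of BECN1.

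PSME4, a single-chain cap that in mammals takes part in the breakdown of acetylated histones, had the largest change of any member, and it alone passed both the adjusted p and an absolute log2 fold change of 1, as 7.01% of all genes did. Its gene lies at chr3:3125733-3188458. It was at 7.50, 15.2 and 22.6 CPM in Sal-exposed livers, against 2.50, 7.95 and 9.95 CPM in control livers (log2 fold change 1.08, SE 0.30, adjusted p = 0.0298). Sal-exposed liver 2, the library with the highest core sum of its group, had the lowest PSME4 of its group. PSMD5, a chaperone of the base, was also without overlap, at 16.4, 19.2 and 21.9 CPM in Sal-exposed livers against 5.45, 13.3 and 16.3 CPM in control livers, yet its adjusted p was 0.0729 (log2 fold change 0.60, SE 0.22). These 2 members without overlap compare with 5.73% of all genes. The remaining cap, PSME1, had a log2 fold change of -0.53 (adjusted p = 0.171), and the inhibitor PSMF1 one of -0.33 (adjusted p = 0.212).

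**Figure D3:**
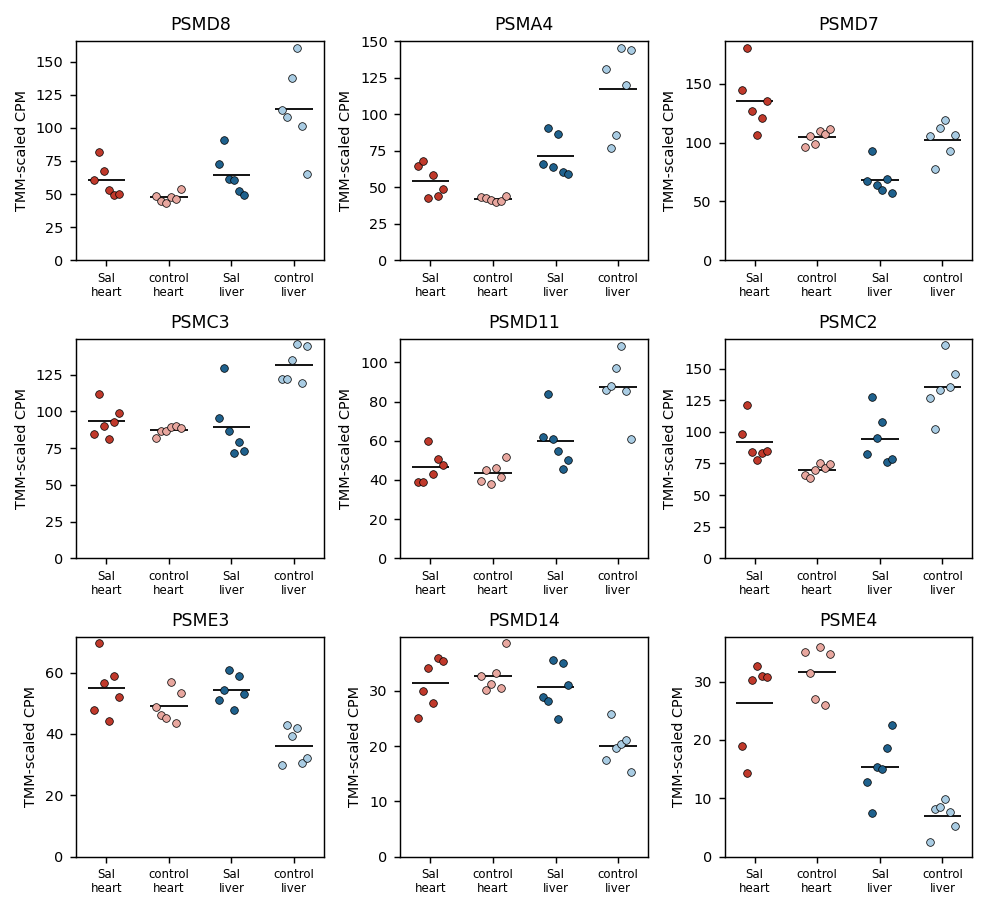
TMM-scaled CPM per library of the 9 members past the threshold in the liver, with Sal-exposed and control hearts on the left of each panel and Sal-exposed and control livers on the right. Lines are means of 6. In the liver PSMD8, PSMA4, PSMD7, PSMC3, PSMD11 and PSMC2 sit lower in the exposed group, and PSME3, PSMD14 and PSME4 sit higher.

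Hepatocyte markers summed to 107896 to 185584 CPM in Sal-exposed livers and 135971 to 293105 CPM in control livers, with 2 of 9 rows of the list (APOH and TF) lower in Sal-exposed livers and 0 higher. All 9 rows had a log2 fold change below 0, with a median of -0.77. At an unadjusted p under 0.05 in edgeR 5 of them were lower, where 16.1% of all genes were. Other lists held 1 or 2 calls each, in a tissue where 15.4% of all genes passed. Lower in Sal-exposed livers were 2 of 4 erythrocyte markers (HBA1 and HBBA), or 50%, and 2 of 5 fibroblast markers (COL1A1 and COL1A2), or 40%. So were 1 of 5 endothelial markers (EGFL7) and 1 of 7 cardiomyocyte markers tested (TNNC1), and 1 of 5 leukocyte markers (PTPRC) was higher. Log2 fold changes were above 0 in 3 of 5 endothelial markers (median 0.22) and 4 of 5 leukocyte markers (median 0.18). They were above 0 in 0 of 4 erythrocyte, 1 of 5 fibroblast and 0 of 7 cardiomyocyte markers. The leukocyte sum had a median of 2104 CPM in Sal-exposed livers and 2547 CPM in control livers. Erythrocyte markers summed to 66.2 to 234 CPM in Sal-exposed livers and 173 to 658 CPM in control livers, fibroblast markers to 188 to 593 CPM in Sal-exposed livers and 418 to 825 CPM in control livers, endothelial markers to 196 to 331 CPM in Sal-exposed livers and 202 to 267 CPM in control livers, and leukocyte markers to 1757 to 2691 CPM in Sal-exposed livers and 1867 to 3036 CPM in control livers. The part of these lists in the proteasome values was not tested.

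The liver calls depended on which libraries and covariates entered. The count was 3 without Sal-exposed liver 3 or 6, 4 without Sal-exposed liver 5 or control liver 4, and 5 without Sal-exposed liver 1, while PSMD8, PSME3 and PSMD14 passed each time. These are 7.5% to 12.5% of the members, in fits where 6.54% to 10.2% of all genes passed. With 4 surrogate variables 0 members and 0 of 13587 genes passed in edgeR, where an unadjusted p under 0.05 was found for 3 members higher and 4 lower. The core median was then 0.08 and the regulatory median -0.15, against 0.04 over all genes. Long genes read higher on average in Sal-exposed than in control livers. For each library, the deviation of log2 CPM from the mean of all libraries of its tissue was set against log2 genomic span. The slope, which is thus relative to the tissue mean, was 0.049 ± 0.089 in Sal-exposed livers and -0.049 ± 0.019 in control livers (SD, n = 6 each; two-sided exact permutation p = 0.0303). Sal-exposed liver 2 went the other way at -0.106, below the control range of -0.0761 to -0.0194, and Sal-exposed liver 4 was highest at 0.147. In the hearts the slope was -0.0011 ± 0.067 in Sal-exposed and 0.0011 ± 0.010 in control libraries (SD, n = 6 each; two-sided exact permutation p = 0.95). Sal-exposed heart 2 was lowest at -0.0898 and Sal-exposed heart 4 highest at 0.0946. Of the members that rose in the liver, PSME4 and PSMD14 span 62.7 and 46.1 kb and PSME3 7.27 kb. Of those that fell, the PSMA4 model spans 137 kb (RefSeq gene 5114 bp) and the other 5 between 5.31 and 12.0 kb. The median span was 46.1 kb for members called higher, 8.34 kb for those called lower and 7.12 kb for those not called. The part of span in the proteasome values was not tested. With an offset on span 6 members passed, or 15%, where 13.5% of all genes did. Of these PSMA4, PSMC3, PSMD8 and PSME3 were among the 9 and PSMD1 and PSMD5 were not, while PSMC2, PSMD7, PSMD11, PSMD14 and PSME4 no longer passed.

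A model of all 24 libraries asked whether the response to Sal was the same in both tissues, through the interaction term. It called 12 of 40 members, or 30%, where 16.2% of 14632 genes were called. The liver response was below the heart response in 10 of them, or 25%, and above it in 2, or 5%, where 7.21% and 9.01% of all genes were below and above. The median difference, liver minus heart, was -0.47 over the core and -0.44 over the regulatory particle, against 0.09 over all genes. PSMD7 had the lowest p, with a difference of -0.95 (SE 0.20, adjusted p = 0.00285). It was followed by PSMA4 at -1.09 (adjusted p = 0.00332), PSMD8 at -1.17 (adjusted p = 0.00376), PSMC2 at -0.90 (adjusted p = 0.00474) and PSMB3 at -1.001 (adjusted p = 0.00751). PSMC3, PSMA1, PSMD12, PSMC6 and PSMD11 made up the rest of the 10, with differences between -0.80 and -0.52. PSMD14 at 0.68 (adjusted p = 0.0144) and PSME4 at 1.39 (adjusted p = 0.0145) were the 2 on the other side. With an offset on genomic span 13 members were called, or 32.5%, where 16.6% of all genes were. PSMD12, PSMD14 and PSME4 were not among them.

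Of the 29 core and regulatory genes, 21 had a positive log2 fold change in the heart and a negative one in the liver, which is 72.4%, against 27.7% of the 12565 genes tested in both tissues. The core (10 of 13) and the regulatory particle (11 of 16) both showed this pattern. It held only relative to the typical gene: with total nuclear counts and no scaling factor 4 of the 29 had these signs, or 13.8%, against 8.69% of 12647 genes, while 13 were positive in both tissues. Exceptions were PSMA6 and PSMD6, positive in both tissues, PSMB5, PSMD3 and PSMD14, negative in the heart and positive in the liver, and PSMA2, PSMC5 and PSMD2, negative in both. Cytosolic ribosomal proteins, another set of genes for large complexes, had medians of 0.06 in the heart and -0.27 in the liver over 69 genes. Past the threshold were 0 in the heart and 3 in the liver, or 4.35%, where 0.185% and 15.4% of all genes passed. The medians were -0.01 in the heart and -0.21 in the liver for the 8 genes of the chaperonin TRiC and 0.03 in the heart and -0.02 in the liver for the V-ATPase. In the liver 0 of 8 TRiC genes and 2 of 16 V-ATPase genes, or 12.5%, passed, and in the heart none of either set did. When total nuclear counts replaced TMM, the interaction called 8 members as higher and 0 as lower, or 20%, where 32.3% of all genes were called, with an all-gene median of 0.66 and the core at -0.53 and the regulatory particle at -0.51 relative to it.

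Control hearts were then set against control livers to give the starting level of the complex in each tissue. The threshold was passed by 28 of 40 members, or 70%, which is close to the 68.8% of all 14121 genes. Of these, 23 were lower and 5 higher in control hearts, where 32.9% and 35.9% of all genes were lower and higher. All 13 core genes had a log2 fold change below 0, where 51.6% of all genes had one above 0, and 11 passed, with a median of -0.56. In the regulatory particle 8 were lower and 2 higher, with a median of -0.26, against 0.06 over all genes. With an offset on genomic span the core median was -0.55 and the regulatory median -0.13, against -0.11 over all genes. Hearts and livers were homogenised in different solutions, so tissue and extraction cannot be told apart.

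PSME1, which in mammals is induced by interferon and caps proteasomes that make peptides for antigen presentation, differed most. It was at 9.32, 14.4 and 18.1 CPM in control hearts, against 49.1, 92.9 and 108 CPM in control livers (log2 fold change -2.57, SE 0.22, adjusted p = 1.34e-07). PSMC3IP followed at -1.85, from low levels of 1.39 to 2.56 CPM in control hearts against 2.86 to 10.0 CPM in control livers. PSMA4 at -1.50, PSMD8 at -1.29 and PSMD11 at -1.03 came next. In the opposite direction PSME4 was at 25.9, 33.1 and 35.96 CPM in control hearts, against 2.50, 7.95 and 9.95 CPM in control livers (log2 fold change 2.16, SE 0.27, adjusted p = 5.86e-06). PSMG1, a chaperone of alpha ring assembly, was at 0.93, PSMD14 at 0.70 and PSME3 at 0.42, all past the threshold, and PSMG4, another such chaperone, was at 0.37 without passing.

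**Figure D4:**
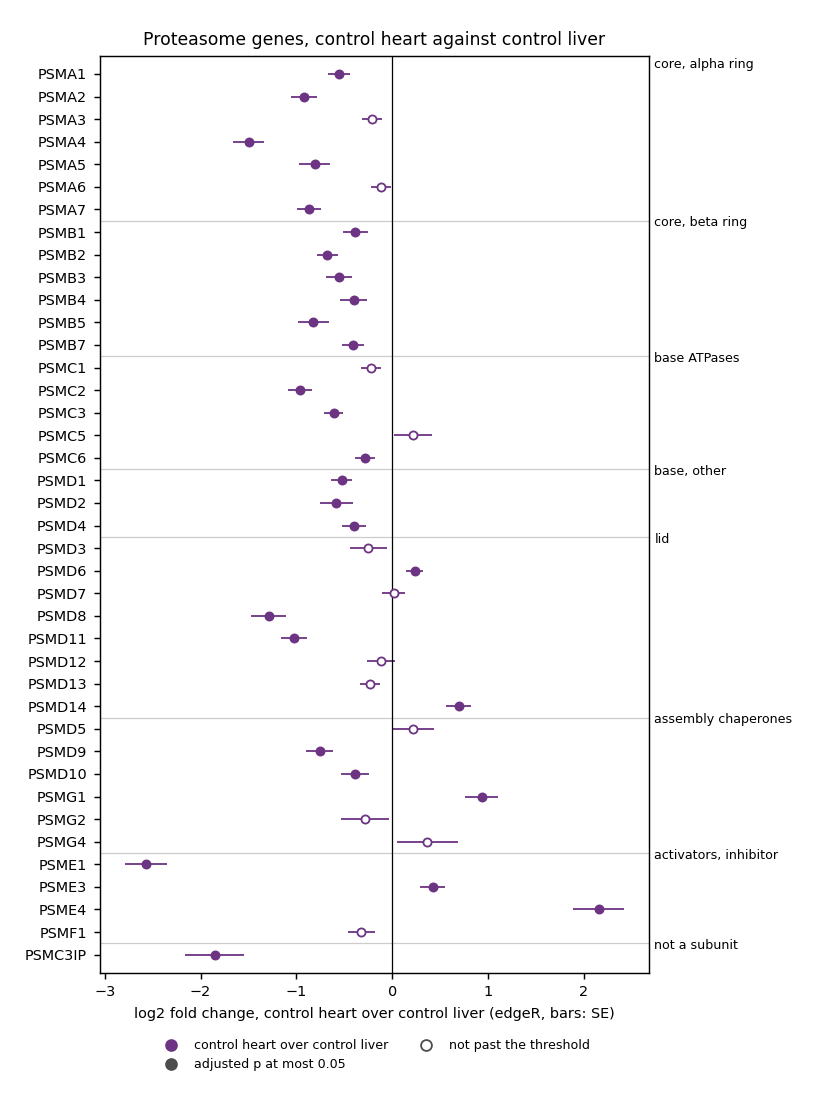
Log2 fold change of each member, control heart over control liver, with the standard error of the edgeR fit and 6 libraries a group. Filled points passed an adjusted p of 0.05. The 13 core genes lie left of 0, PSME1 lies furthest left at -2.57 and PSME4 furthest right at 2.16.

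These directions too were relative to the typical gene. With total nuclear counts and no scaling factor the all-gene median was 1.08, the core median 0.47 and the regulatory median 0.76, and 28 members passed as higher in control hearts and 3 as lower, or 77.5% together, where 76.6% of all genes passed. Relative to the median gene the core then lay at -0.61 and the regulatory particle at -0.32, where the TMM values were -0.62 and -0.32 relative to it. The members that set heart apart from liver at baseline and those that moved with Sal in the liver shared the control livers, so they are given side by side only. PSME4, PSMD14 and PSME3 were higher in control hearts than in control livers and rose in Sal-exposed livers, and PSMA4, PSMD8, PSMD11, PSMC2 and PSMC3 were lower in control hearts and fell in Sal-exposed livers. PSMD7 also fell in Sal-exposed livers but did not differ between the control tissues (log2 fold change 0.018, adjusted p = 0.903). The share of all genes with such matching signs was not counted.

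A few members were low in the libraries with a high mitochondrial share, a pattern noticed after the values were seen and given without a test. PSMC5 was at 50.4 and 42.8 CPM in Sal-exposed hearts 1 and 4, and at 79.7 to 98.3 CPM in the other Sal-exposed hearts, with 66.0 to 83.7 CPM in control hearts. PSMD3 was at 40.3 and 35.9 CPM in Sal-exposed hearts 1 and 4, PSMD4 at 24.8 and 20.3 CPM, and PSMB5 at 40.6 and 37.5 CPM. In each case these were the 2 lowest of the 12 hearts. That held for 10 of 40 members, or 25%, and for 10.2% of all genes in the heart. In the liver, Sal-exposed liver 4 had a mitochondrial share of 30.4% where the other Sal-exposed livers had 6.92% to 10.9%, and it was the lowest of its group for PSMB5 (69.7 CPM), PSMC5 (21.7 CPM), PSMD3 (53.0 CPM) and PSMD4 (14.5 CPM). Control liver 6, with the highest share of its group at 26.5%, was the lowest control for PSMB5, PSMC5 and PSMD3. Among all livers, Sal-exposed liver 4 was the lowest for 27.5% of the members and 12.2% of all genes. Control liver 6 was the lowest for 12.5% of the members and 26.6% of all genes. The part of the mitochondrial share in these values was not tested.

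**Figure D5:**
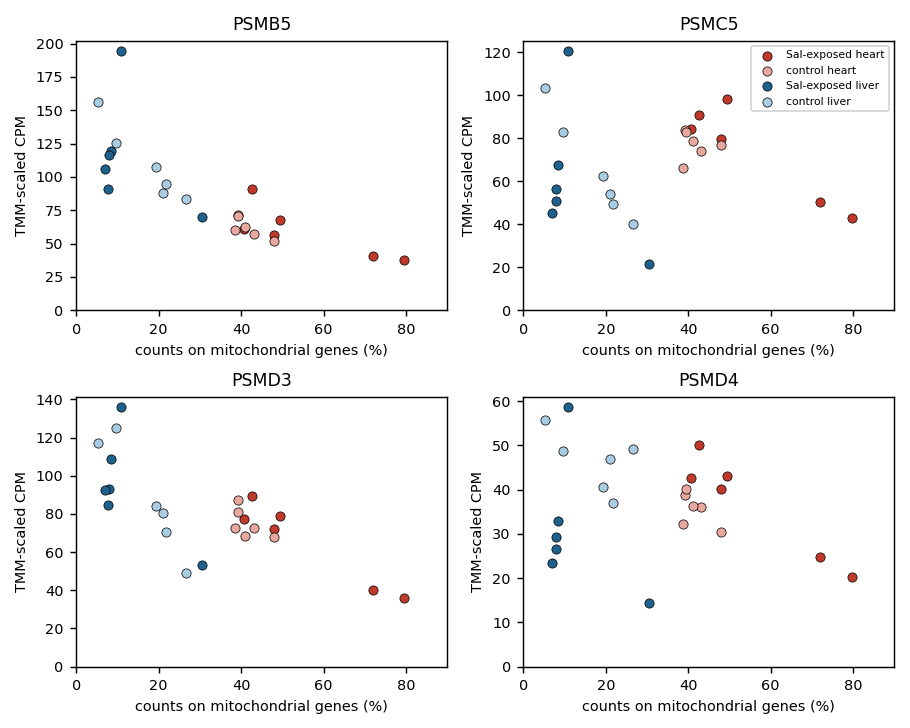
TMM-scaled CPM of PSMB5, PSMC5, PSMD3 and PSMD4 in each of the 24 libraries against the percentage of its counts on mitochondrial genes. Sal-exposed hearts 1 and 4, at 72.0% and 79.6%, have the lowest levels of the 12 hearts in all 4 panels, and Sal-exposed liver 4, at 30.4%, has the lowest of the Sal-exposed livers.

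Genes around the proteasome were read from lists of partners, ubiquitin supply and the NFE2L1 pathway. In the heart 0 of 12 partners, 0 of 11 genes of ubiquitin supply and shuttling and 0 of 10 genes of the NFE2L1 pathway passed in edgeR. Of all genes, 0.185% passed there. At an unadjusted p under 0.05, 5, 1 and 2 of the lists were higher and 0 lower, where 10.1% of all genes were higher and 7.1% lower. In the liver 1, 1 and 2 passed, all higher in Sal-exposed livers, which is 8.33%, 9.09% and 20% of the lists, where 15.4% of all genes passed. At an unadjusted p under 0.05, 1, 1 and 5 genes were higher there and 1, 3 and 0 lower. Of all genes, 15.4% were higher and 16.1% lower at that level. The 4 genes that passed are given as single values and not as a result about the lists. UBE3C, a ubiquitin ligase that binds the proteasome, was at 20.02, 25.8 and 31.2 CPM in Sal-exposed livers, against 8.77, 13.98 and 18.2 CPM in control livers (log2 fold change 0.90, SE 0.18, adjusted p = 0.00773). The shuttle UBQLN1, which carries ubiquitinated proteins to the proteasome, was at 37.6, 53.0 and 64.0 CPM in Sal-exposed livers, against 18.6, 28.9 and 31.1 CPM in control livers (log2 fold change 0.86, SE 0.18, adjusted p = 0.00955). Neither gene had overlapping groups, as was the case for 5.73% of all genes in the liver.

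SEL1L, an adaptor for the degradation of proteins of the endoplasmic reticulum, was at 12.3, 23.8 and 34.7 CPM in Sal-exposed livers, against 8.55, 11.9 and 17.5 CPM in control livers (log2 fold change 0.89, SE 0.23, adjusted p = 0.0225). NFE2L2, the relative of NFE2L1 that responds to oxidants, was at 51.1, 56.4 and 112 CPM in Sal-exposed livers, against 25.9, 39.2 and 45.9 CPM in control livers (log2 fold change 0.78, SE 0.22, adjusted p = 0.0307). NFE2L1 itself was at 68.9, 84.9 and 93.4 CPM in Sal-exposed livers and 32.4, 57.1 and 86.2 CPM in control livers, with a log2 fold change of 0.44 (SE 0.19, adjusted p = 0.132). In the heart NFE2L1 had a log2 fold change of -0.12 (adjusted p = 0.715) and NFE2L2 one of 0.25 (adjusted p = 0.266).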

How the data were processed

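Per the methods and the submitters' processing notes, the authors trimmed reads with fastp, aligned them with STAR to GRCg7b and quantified genes with RSEM (no source used here gives their versions). Their deposited table gives unnormalized whole-number counts of Ensembl genes. It has 36 columns, of which 12 match no sample here and were not used. The deposited tables of the authors' own comparisons (fold changes and p-values) served only for gene symbols and positions. 39 of 40 members matched RefSeq (GRCg7b) by symbol and place, and PSMD8 had no RefSeq match by symbol.

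The analysis ran in edgeR 4.0.16 under R 4.3.3 (TMM, filterByExpr at min.count 10 and min.total.count 15, quasi-likelihood test, Benjamini-Hochberg adjustment over all genes tested), and a gene passed at an adjusted p of at most 0.05. SE is the log2 fold change over the root of F. Per-library CPM were scaled over all 24 libraries. Fits were tested on simulated data. For single values a two-sided exact permutation test used all 924 splits, so that p could not go below 0.00216. The labels name separate birds only by number, so p-values measure the spread between these samples. No pair of libraries agreed within sampling noise (chi-square per degree of freedom at least 12.9 in 276 pairs).

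Alternatives were DESeq2 1.42.0, sva 3.50.0, upper-quartile scaling, no filter, mitochondrial genes left out, a span offset, the replicate block, 1 fit of all libraries, a fold threshold and leaving out each library. CPM of the groups compared are given for members past the threshold in the liver, the 3 largest changes each way per tissue and catalytic subunits. The 5 lowest interaction p and the 5 largest tissue differences each way are given as log2 values, only some of them with CPM. Other members were named freely. The members and lists were chosen with earlier results of these data known.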

Additional observations from a re-analysis of the deposited data

Results flagged for a closer look

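Among 64 sets of 6 libraries (sums of each particle, mitochondrial shares and the members given per group), 7 had 1 library standing apart by Dixon's test, which chance does in about 1 of 20 sets. In Sal-exposed livers, library 2 stood above the others for the core sum (1407 CPM, others 841 to 976), the regulatory sum (1501 CPM, others 989 to 1159), PSMD7 (93.0 CPM, others 57.3 to 69.4) and PSMB7 (171 CPM, others 98.2 to 118). These values share a library and are not independent. Sal-exposed liver 1 stood above the others for the summed activators and inhibitor (205 CPM, others 162 to 177). Sal-exposed liver 4 did so for its mitochondrial share (30.4%, others 6.92% to 10.9%). In the heart, PSMB3 was at 122 CPM in Sal-exposed heart 2, where the others had 55.5 to 74.2 CPM.

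The response to Sal differed between the tissues by the edgeR interaction test for 12 members. The liver response was below that of the heart, on the log2 scale, by -0.95 for PSMD7 (adjusted p = 0.00285), -1.09 for PSMA4 (0.00332), -1.17 for PSMD8 (0.00376), -0.90 for PSMC2 (0.00474), -1.001 for PSMB3 (0.00751), -0.65 for PSMC3 (0.0193), -0.79 for PSMA1 (0.0242), -0.80 for PSMD12 (0.0302), -0.52 for PSMC6 (0.0325) and -0.65 for PSMD11 (0.0413). It was above that of the heart by 0.68 for PSMD14 (0.0144) and 1.39 for PSME4 (0.0145). With an offset on genomic span PSMD12, PSMD14 and PSME4 no longer passed. With offset and replicate block PSME4 passed and PSMD12 and PSMD14 did not. None of the 12 passed in the edgeR fit of the heart, and PSMB3, PSMC2, PSMC6 and PSMD12 passed there in DESeq2.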

How the results depend on the processing

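In the heart, the count of members past the threshold was 0 under edgeR, where 0.185% of all genes passed. It was 4 in DESeq2 (10%, against 4.85% of all genes) and 8 with surrogate variables (20%, against 7.34%). It was 0 to 1 when a library was left out (0% to 2.5%, against 0% to 1.99%). In the liver, against 9, it was 1 with an added log2 fold change of 1, where 7.01% of all genes passed. With surrogate variables it was 0, where 0 of 13587 genes passed. Leaving out a library gave 3 to 12 in the liver, or 7.5% to 30%, against 6.54% to 20.7% of all genes. The added fold threshold left 4 of 12 members in the interaction (1548 of 2373 genes) and 6 of 28 between the tissues (7179 of 9720 genes). Leaving out a library gave 9 to 18 in the interaction, or 22.5% to 45%, against 11.7% to 20.4% of all genes. Between the tissues it gave 25 to 29, or 62.5% to 72.5%, against 65.9% to 72.5%.

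Same-numbered libraries were not treated as paired, because the labels do not pair them and not every correlation of their deviations from the group means was above 0.1. Between Sal-exposed hearts and livers 4 of 6 correlations were above 0.1 and 5 of 6 libraries correlated best with their own number, and between control hearts and livers 2 and 3 did. The mean correlation of Sal-exposed hearts and livers was 0.216 for the same number and -0.042 for other numbers, a hint that numbers match birds. By the methods the hearts and livers of a group share birds, but no label matches their numbers. The interaction and tissue fits take the libraries as independent, so their p-values leave this sharing out. Between Sal-exposed and control libraries, 0 of 6 hearts and 1 of 6 livers were above 0.1. The replicate block used the number alone in the heart and liver fits, across Sal-exposed and control birds that no label pairs. In the interaction fit it used treatment and number together. With this block the count was 0 in the heart, where 0 of 13526 genes passed. It was 1 in the liver (PSMD8), or 2.5% against 7.43% of all genes, and 14 in the interaction, or 35% against 17.4%. Between the control tissues, with the number alone as block, it was 23, or 57.5% against 65.5%. PSMB5 in the liver lay at -0.0056 with the block. A span offset with the replicate block gave 2 in the liver (PSMD8 and PSME3), or 5% against 5.84% of all genes. The regulatory median of the interaction was -0.63 with the span offset and -0.62 with offset and block, and between the tissues it was -0.13 with the offset, with and without the block. The all-gene median was -0.11 with the span offset, both in the interaction and between the tissues. Relative to it the regulatory median between the tissues was -0.02, where without the offset it was -0.32. With offset and block the all-gene median between the tissues was -0.02. The regulatory particle then lay at -0.10 relative to it.

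With total nuclear counts and no scaling factor, the core and regulatory medians were 0.19 and 0.27 in the liver, 0.13 and 0.15 in the interaction and 0.47 and 0.76 between the tissues, and PSMB7 in the liver (0.25) and PSMD11 between the tissues (0.0052) changed sign. Of 37 values of single members, 12 lost the threshold on that basis. Without Sal-exposed hearts 1 and 4 the heart values of PSMD3 (0.0912), PSMD2 (0.0226), PSMB5 (0.15) and PSMD14 (0.0536) changed sign, and with surrogate variables so did PSMB7 in the liver (0.0124). With a library left out, PSMB5 ranged from -0.24 to 0.0272 in the heart and -0.15 to 0.16 in the liver, and PSMD14 from -0.0916 to 0.0048 in the heart. The cause was not tested. Promoter motifs and sequences were not analysed here.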
